A study of Mus musculus with 2 samples.

Results

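Chemokine genes of the inflamed mouse brain were described through 9 members, Ccl2, Ccl11, Ccl12, Cxcl1, Cxcl10, Cxcl12, Cxcl14, Cxcl16 and Cx3cl1. Their rows were taken from the deposited tables by gene symbol, and all 9 were found among the 13381 protein-coding genes of the gene table. The study asked how brain tissue inflammation differs when the microRNA miR-7 is deficient. One RNA library was titled miR-7KD and one was titled WT, both from brain of C57BL/6J mice 6 to 8 weeks old according to the sample labels. An older age range is given in the study's methods, so the age is not settled. The study's methods state that mice received lipopolysaccharide (LPS), a bacterial cell wall component that triggers inflammation, into the peritoneum before the brain was taken, and the labels do not name LPS. How miR-7 was reduced is not given there, and no library from mice without LPS was analysed here, so no value below measures the response to LPS.

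The sample labels contradict each other. The genotype field reads wild type for the sample titled miR-7KD and miR-7 KD for the sample titled WT, and both descriptions call the mouse wild-type. Every direction below is therefore that of the miR-7KD-titled library relative to the WT-titled library, and the gene table of protein-coding genes holds no miR-7 locus with which to check the titles. The extraction note names retinas, whereas 0 of 8 retina markers were listed. The neuron markers, of which 8 of 8 were listed, do not tell brain from retina, which also holds neurons. With 1 library per title there was no replicate error and no test, and each ratio compares these libraries and not the conditions. Each description calls its sample representative of 3 replicates and does not say whether their RNA was pooled. Values are FPKM, fragments per kilobase of exon after scaling to the size of the library, so that levels of different genes can be set side by side. They summed to 164811 in the miR-7KD-titled library and 162981 in the WT-titled library, with medians of 4.69 and 4.63, and the number of reads behind them is not known.

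Chemokines are small secreted or membrane-tethered proteins that guide migrating cells along a gradient by binding receptors coupled to G proteins. Inflamed astrocytes, microglia and vessel walls make the inducible ones, such as Ccl2, Cxcl1 and Cxcl10, which draw monocytes, neutrophils and T cells, while Cxcl12, Cxcl14 and Cx3cl1 are also made by the healthy brain. Transcription of the inducible genes is driven largely by NF-κB and interferon-activated factors.

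Because the study turns on miR-7, its mature forms are shown with the seed, bases 2 to 8, in capitals. Both are from RefSeq (GRCm38.p6) and share one seed. The miR-7a form is encoded at chr13:58392841-58392863 on the minus strand (Mir7-1) and at chr7:78888295-78888317 on the plus strand (Mir7-2), and the miR-7b form at chr17:56243017-56243040 on the plus strand.
mmu-miR-7a-5p: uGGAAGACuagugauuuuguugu
mmu-miR-7b-5p: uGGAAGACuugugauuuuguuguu

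GTCTTCC, the complement of the seed, was in 0 of 9 chemokine 3′-UTRs, taking the longest annotated one of each gene, and in 1863 of 13290 listed genes (14.0%). TCTTCC, which pairs with bases 2 to 7 only, was in 2 of 9, those of Cxcl10 and Cxcl12, and in 6204 of 13290 genes (46.7%). These 3′-UTRs ran from 167 bases in Ccl12 to 5188 bases in Cxcl12, and a longer one has more room for a match. The Cxcl10 windows that hold it are printed with the 6 matching bases in capitals. They lie at chr5:92347380-92347407 and chr5:92346905-92346932 on the minus strand, where the match starts at bases 405 and 880 of the 3′-UTR.
Cxcl10 first match: atacagtttccTCTTCCtacaggtctaa
Cxcl10 second match: cttaaccaccaTCTTCCcaaggggttat

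All 9 chemokine genes reached 1 FPKM in at least 1 library, and 5 reached 5 FPKM. A gene was called at a log2 ratio of at least 1 in size with 0.1 added to each FPKM, which is a 2-fold difference. Of the 9 genes, 3 were higher in the miR-7KD-titled library (Cxcl14, Ccl11 and Ccl12), 0 were lower and 6 were not called. Over all 11969 genes at 1 FPKM or more, 11.6% were called in either direction, 6.01% higher and 5.58% lower. Calls were more frequent among genes of 3 to 5 exons, the range of the chemokine genes, where 522 of 2571 (20.3%) were called. The median log2 ratio was 0.22 over the 9 genes and -0.01 over all genes at 1 FPKM or more.

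**Figure D1:**
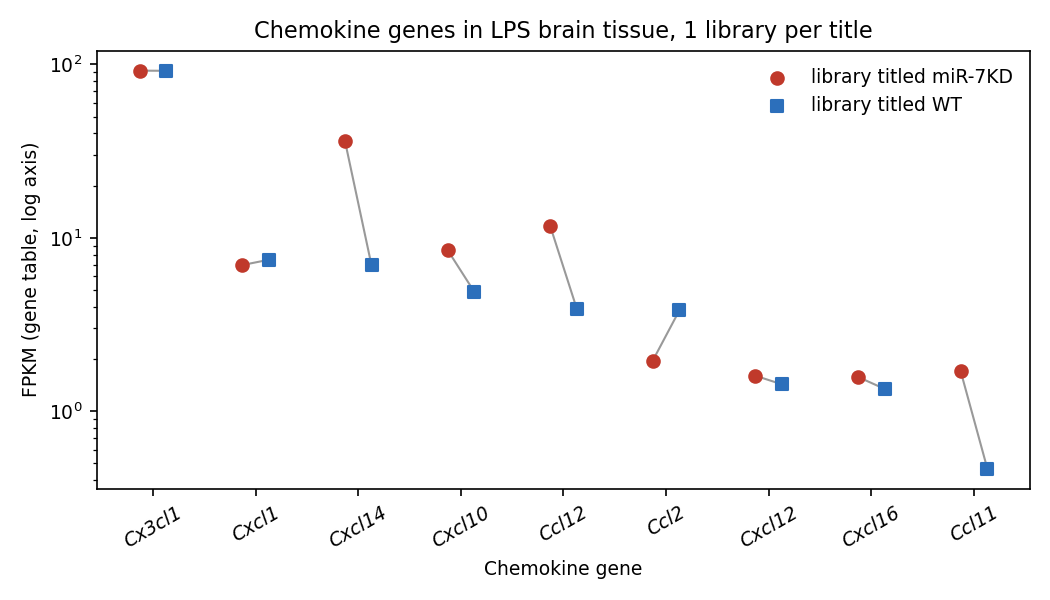
FPKM of the 9 chemokine genes in the gene table (y axis, log scale), with circles for the miR-7KD-titled library and squares for the WT-titled library, joined for each gene and ordered by the level in the WT-titled library. Cx3cl1 stands at the top of both libraries at 92.1 and 91.9 FPKM, and Cxcl14, Ccl12 and Ccl11 have the steepest lines.

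The order of levels within each library was led by Cx3cl1, which held 56.7% of the summed chemokine FPKM of 162.5 in the miR-7KD-titled library and 75.2% of 122 in the WT-titled library. Cxcl14 came next in the miR-7KD-titled library, followed by Ccl12, Cxcl10 and Cxcl1. In the WT-titled library, Cxcl1, Cxcl14, Cxcl10 and Ccl12 followed in that order. Ccl2, Ccl11, Cxcl12 and Cxcl16 lay under 4 FPKM in both libraries in the gene table. These orders are those of gene values and change with listed transcripts. In the miR-7KD-titled library, Cxcl10-001 (13.2 FPKM) and Cxcl1-001 (12.7 FPKM) stood above Ccl12-001 (11.7 FPKM). In the WT-titled library, Cxcl10-001 (9.73 FPKM) stood above Cxcl14-201 (6.92 FPKM), and Ccl2-001 (5.25 FPKM) above Ccl12-001 (3.89 FPKM). With no replicate, which neighbours in these orders differ beyond their spread cannot be told.

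Cx3cl1 encodes fractalkine, which neurons carry on their surface and shed, and whose receptor Cx3cr1 sits on microglia. It lies at chr8:94772009-94782423 on the plus strand of GRCm38, with 3 exons. It measured 92.1 FPKM in the miR-7KD-titled library and 91.9 FPKM in the WT-titled library, a ratio of 1.002, and ranked 237th of all listed genes in both. Its transcript Cx3cl1-001 measured 103 FPKM in each library and held 94.3% and 94.2% of the gene's signal. An unannotated single-exon transcript of 1053 bases on the opposite strand, at chr8:94781368-94782420, was listed at 0 in the miR-7KD-titled library and at 1.23 FPKM in the WT-titled library. Next to it in the genome, Ccl17 measured 3.44 FPKM and 3.37 FPKM in the same order of libraries.

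Cxcl14, a chemokine made without inflammatory stimulus in epithelia and in some interneurons, had the largest ratio of the 9 in the gene table. It measured 36.4 FPKM in the miR-7KD-titled library and 6.92 FPKM in the WT-titled library, 5.26 times as much, with a log2 ratio of 2.38. It ranked 880th in the miR-7KD-titled library and 5134th in the WT-titled library, so that the libraries put it in different parts of the range. The gene lies at chr13:56288647-56296551 on the minus strand, with 4 exons.

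An unannotated transcript of 5 exons and 1816 bases covers nearly the same span and strand as Cxcl14, from chr13:56288643-56296770. It was listed at 0 in the miR-7KD-titled library and at 6.43 FPKM in the WT-titled library, close to the value of the annotated transcript there. Adding it to the gene value gave 36.4 FPKM and 13.4 FPKM, which lowered the ratio to 2.73 and the log2 ratio to 1.44, still past 2-fold but below those of Ccl11 and Ccl12. Cxcl14 was the only member overlapped by an unannotated transcript on its own strand, against 4837 of the 11969 genes at 1 FPKM or more (40.4%). How fragments were divided between overlapping transcripts is not stated by the labels or methods, and its part in the ratio was not tested beyond this sum.

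Cxcl12 holds CXCR4-bearing cells in place, among them neural progenitors and leukocytes at vessel walls, and is also bound by the scavenging receptor Ackr3. Its gene value was 1.60 FPKM in the miR-7KD-titled library and 1.43 FPKM in the WT-titled library, a log2 ratio of 0.16. It lies at chr6:117168535-117181367 on the plus strand. The listed transcripts went apart. Cxcl12-003, a transcript of 5627 bases, measured 0.846 FPKM in the miR-7KD-titled library and 0.414 FPKM in the WT-titled library, a log2 ratio of 0.88. Cxcl12-002, of 3132 bases, measured 0.323 FPKM and 2.27 FPKM in the same order, 0.142 times as much in the miR-7KD-titled library, with a log2 ratio of -2.49. In the transcript table, 4605 of 18988 transcripts that reached 1 FPKM (24.3%) were past 2-fold, so Cxcl12-002 was 1 of many.

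These transcripts end in different codons. In GENCODE M21 their coding sequences share the first 89 codons. Cxcl12-003 (Cxcl12-201 in GENCODE) reads on to 119 codons and Cxcl12-002 (Cxcl12-203) to 93 codons, while Cxcl12-202, which stops right after the shared part, is not in the table used here. The 3 coding ends are shown from the last shared codons on, with capitals from coding base 268, the first base after the shared codons. The end of Cxcl12-201 is shown only for its first bases and does not reach its stop codon.
Cxcl12-201: aaagctttaaacaagGGGCGCAGAGAAGAA
Cxcl12-202: aaagctttaaacaagTAA
Cxcl12-203: aaagctttaaacaagAGGCTCAAGATGTGA

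Gene values in these tables were close to the sum of transcript FPKM times transcript length, divided by the length of the gene's exons merged. Among 280 genes with every annotated transcript listed, this rule came within 1% in 260 (92.9%) in the miR-7KD-titled library and in 262 (93.6%) in the WT-titled library. On this scale the listed coding transcripts of Cxcl12 held 44.1% of the gene's signal in the miR-7KD-titled library and 81.0% in the WT-titled library. Cxcl12-003 held 36.4% and 19.96%, and Cxcl12-002 held 7.73% and 61.1%. The remaining 55.9% and 19.0% belonged to no listed transcript. Summing the listed transcripts instead gave 1.17 FPKM in the miR-7KD-titled library and 2.69 FPKM in the WT-titled library, a log2 ratio of -1.14, so that Cxcl12 would count as lower on that scale and as not called on the other.

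**Figure D2:**
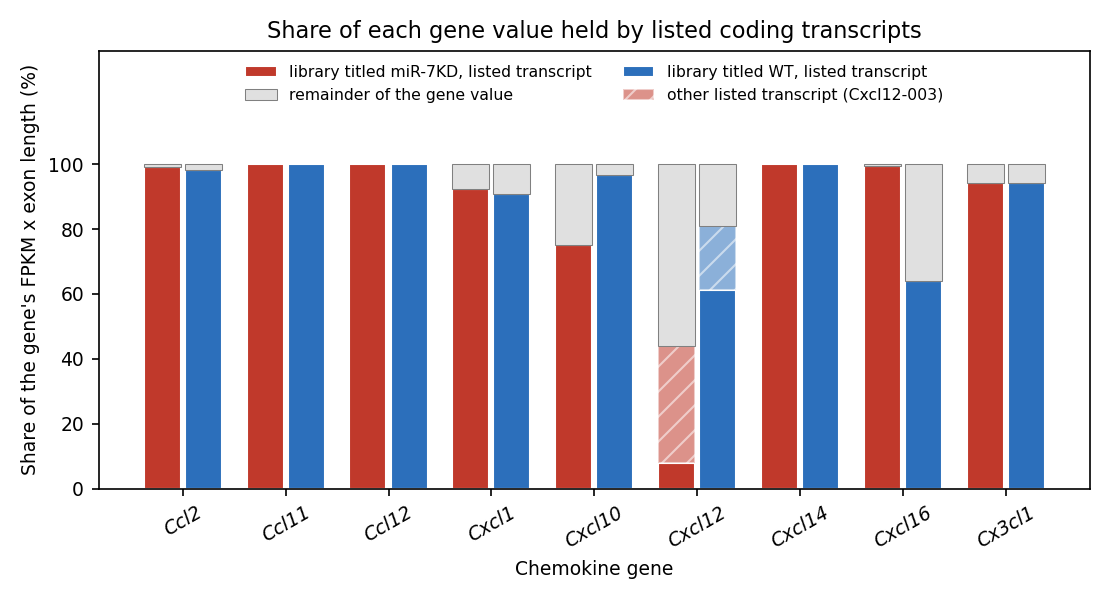
Share of each gene's FPKM times exon length, in %, held by its listed coding transcripts (filled), with the grey remainder held, by the rule above, by no listed transcript. Left bars are the miR-7KD-titled library and right bars the WT-titled library, and for Cxcl12 the hatched part is Cxcl12-003 above Cxcl12-002, where the bars reach 44.1% and 81.0%.

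Cxcl16 is made as a membrane-anchored scavenger of oxidised lipid and, once shed, draws Cxcr6-bearing T cells. Its gene value was 1.57 FPKM in the miR-7KD-titled library and 1.34 FPKM in the WT-titled library, a ratio of 1.17. Its coding transcript Cxcl16-001 measured 1.76 FPKM and 0.960 FPKM in the same order, a ratio of 1.83. That transcript held 99.6% of the gene's signal in the miR-7KD-titled library and 63.9% in the WT-titled library, which is where both scales part. Cxcl16 (chr11:70453983-70459984, minus strand, 5 exons) shares 19.0% of its 50-base stretches with Zmynd15 on the opposite strand, which is not listed, and neither labels nor methods say whether counting used strand. Its low value is therefore uncertain.

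Ccl2, Ccl11 and Ccl12 stand together on chromosome 11 within 67.8 kb, all on the plus strand and with 3 exons each, with Ccl7 between Ccl2 and Ccl11. Ccl2 and Ccl12 draw monocytes through Ccr2, and Ccl11 (eotaxin) draws eosinophils through Ccr3. Within this cluster the ratios fell on both sides of 1. The gene that opens it, Ccl2 (chr11:82035571-82037453), measured 1.96 FPKM in the miR-7KD-titled library and 3.82 FPKM in the WT-titled library, a ratio of 0.512 and a log2 ratio of -0.93, just short of the threshold. Its neighbour Ccl7, a further monocyte attractant, measured 1.05 FPKM and 1.94 FPKM in the same order, a log2 ratio of -0.82, and was not called either.

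Farther along, Ccl11 (chr11:82057823-82062955) measured 1.70 FPKM in the miR-7KD-titled library and 0.466 FPKM in the WT-titled library, a log2 ratio of 1.67. It was the lowest of the 9 genes in the WT-titled library and passed the minimum of 1 FPKM through the miR-7KD-titled library alone. With 1 added to each value in place of 0.1, its log2 ratio was 0.88 and it was not called. Ccl12 (chr11:82101845-82103400), at the far end, measured 11.7 FPKM in the miR-7KD-titled library and 3.89 FPKM in the WT-titled library. Its ratio was 3.01 and its log2 ratio 1.57, and it ranked 3183rd and 7352nd in these libraries. Of this cluster only Ccl12 was above 10 FPKM in either library. Single listed transcripts held 99.1% and 98.2% of the signal of Ccl2 in these libraries and 100% of that of Ccl11 and Ccl12, and no 50-base stretch of these 3 was shared with another gene.

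Cxcl1, which draws neutrophils through Cxcr2, measured 6.96 FPKM in the miR-7KD-titled library and 7.47 FPKM in the WT-titled library. The ratio was 0.931 and the log2 ratio -0.10. It lies at chr5:90891241-90893115 on the plus strand, with 4 exons, and its transcript Cxcl1-001 gave 12.7 FPKM and 13.3 FPKM in the same order. Its neighbour Cxcl2, a ligand of the same receptor, stayed under 1 FPKM in both libraries at 0.977 and 0.733.

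Cxcl10 is induced by interferon and draws Cxcr3-bearing T cells. It measured 8.51 FPKM in the miR-7KD-titled library and 4.89 FPKM in the WT-titled library, a ratio of 1.74 and a log2 ratio of 0.79, which was not called. The coding transcript Cxcl10-001 gave 13.2 FPKM and 9.73 FPKM in the same order, a ratio of 1.35, and held 75.1% of the gene's signal in the miR-7KD-titled library and 96.6% in the WT-titled library. Cxcl9, another interferon-induced ligand of Cxcr3 next to it on chromosome 5, measured 2.27 FPKM and 2.80 FPKM, on the other side of 1. Cxcl10 (chr5:92346638-92348889, minus strand, 4 exons) shares 8.04% of its 50-base stretches with Art3 on the opposite strand, which measured 0.862 FPKM and 0.936 FPKM.

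Of the 9 genes, 6 were matched in the RefSeq promoter table (GRCm38.p6), namely Ccl12, Cxcl1, Cxcl10, Cxcl12, Cxcl14 and Cx3cl1. The 250 bases before the start site were searched on both strands for the κB motif, which NF-κB binds, and for GAAA, any 2 bases and GAAA again (the GAAA pair), letters that interferon-activated factors bind. The κB motif was in Cxcl1 and Cxcl10 and in 3.90% of 32851 promoters. The GAAA pair was in Cxcl10 and Cxcl14 and in 2.98% of promoters. Matches are shown, with the motif in capitals, for the most abundant inducible genes with a matched promoter and a match (Cxcl1, Cxcl10) and for Cxcl14, the gene with the largest ratio in the gene table. They lie at chr5:90891164-90891193 on the plus strand for Cxcl1, where a second κB match on the other strand overlaps it. For Cxcl10 they lie at chr5:92349029-92349058 and chr5:92348973-92349002 (κB) and at chr5:92349083-92349112 (GAAA pair), and for Cxcl14 at chr13:56296704-56296733, all on the minus strand. The first motif base is 71 bases before the start site of Cxcl1, 159, 103 and 213 bases before that of Cxcl10 and 172 bases before that of Cxcl14. The Cxcl14 window lies within chr13:56288643-56296770, the span of the unannotated transcript described above, and so is not upstream of that transcript's start.
Cxcl1 κB: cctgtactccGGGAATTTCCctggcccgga
Cxcl10 κB, farther: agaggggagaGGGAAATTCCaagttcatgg
Cxcl10 κB, nearer: cggtttacagGGGACTTCCCtcgggttgcg
Cxcl10 GAAA pair: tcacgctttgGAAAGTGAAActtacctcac
Cxcl14 GAAA pair: gtgtccacagGAAACAGAAAagcagcaccc

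TGANTCA, the letters that AP-1 binds, was searched on both strands and found only in Cxcl10 among the 6, against 6.75% of promoters. TATAAA was searched on the plus strand and found in Ccl12 and Cx3cl1, against 7.59% of promoters. Its first base is 31 bases before the start site of Ccl12 and 6 bases before that of Cx3cl1. The Cx3cl1 match, in the window chr8:94772164-94772179, lies within the gene span given above. The genes with a κB match, Cxcl1 and Cxcl10, had log2 ratios of -0.10 and 0.79. Those of the 6 without one ranged from 0.00 in Cx3cl1 to 2.38 in Cxcl14. These matches are descriptions of letters in the window and say nothing about binding in these libraries.

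**Figure D3:**
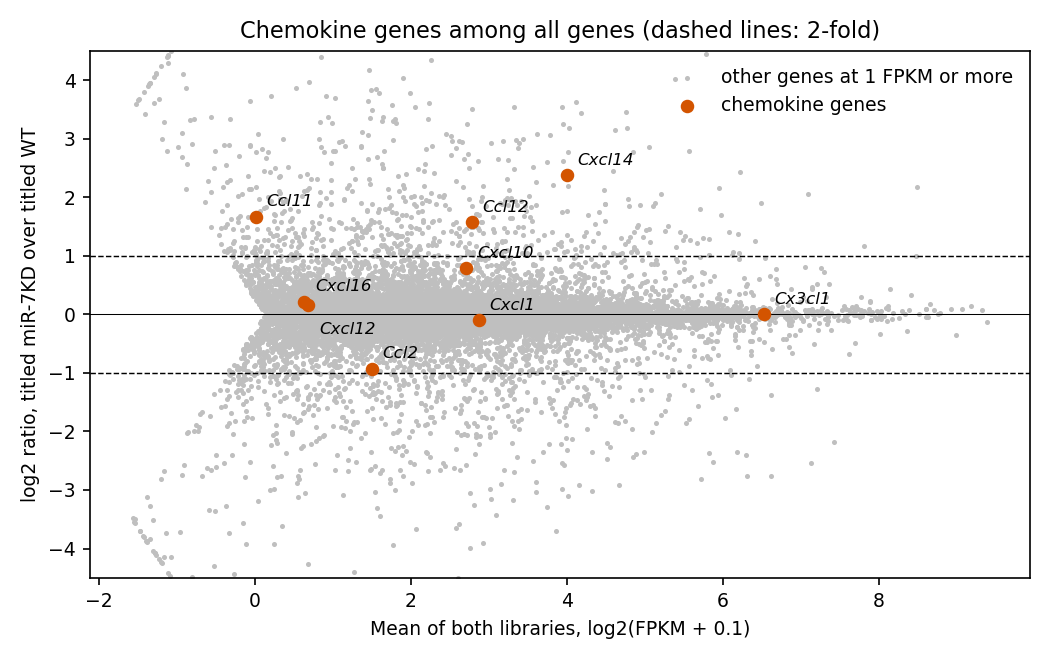
Log2 ratio, titled miR-7KD over titled WT with 0.1 added to each FPKM (y axis), against the mean log2 level of both libraries (x axis), for the 11969 genes at 1 FPKM or more (grey) and the 9 chemokine genes (orange), with dashed lines at 2-fold and 123 other genes beyond the axis limit of 4.5 not drawn. Cxcl14, Ccl11 and Ccl12 lie above the upper line at 2.38, 1.67 and 1.57, and grey points spread most at low levels.

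Among the other 29 chemokine ligand genes, 14 were listed, 9 reached 1 FPKM and 0 were called in either direction. Ccl27a measured 16.6 FPKM in the miR-7KD-titled library and 16.5 FPKM in the WT-titled library, and Ccl5, which draws T cells, measured 10.9 FPKM and 11.8 FPKM. The median log2 ratio of these 9 was -0.12. Whether the ligands described here differ from the remaining ligands was not tested.

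Of 18 chemokine receptor genes 4 were listed and 1 reached 1 FPKM. Cx3cr1, the fractalkine receptor of microglia, measured 0.0172 FPKM in the miR-7KD-titled library and 3.03 FPKM in the WT-titled library and was called lower. An unannotated transcript on the same strand that overlaps its span measured 4.91 FPKM and 5.36 FPKM. Adding it brought the log2 ratio to -0.76, short of a call. That sum is not weighted by length as gene values are, and whether the transcript belongs to Cx3cr1 was not tested. The other listed receptors stayed under 1 FPKM in both libraries. Among them, Cxcr4 measured 0.891 FPKM and 0.525 FPKM, and Ccr1 measured 0.551 FPKM and 0.704 FPKM. Ccr2, Ccr3, Cxcr2, Cxcr3 and Cxcr6, the receptors of the inducible ligands above, are not in the table used here, whose lowest maximum was 0.501 FPKM. Of the atypical receptors, Ackr1, which binds inflammatory chemokines on vessels and red cells, measured 13.4 FPKM and 25.7 FPKM, or 41.5 FPKM and 44.0 FPKM with an unannotated transcript of its strand added. Ackr3 measured 6.34 FPKM and 5.27 FPKM, and 0 of the 3 at 1 FPKM or more were called.

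Genes that shed, trim or retain chemokines gave 1 higher and 0 lower of 8. The one higher was Timp2, an inhibitor of metalloproteinases, at 59.6 FPKM in the miR-7KD-titled library and 5.38 FPKM in the WT-titled library. Adam10, which sheds Cx3cl1 and Cxcl16, measured 16.3 FPKM and 17.2 FPKM. Of 10 genes that relay the signal below the receptors, 1 was higher and 1 was lower. Arrb1, a β-arrestin, measured 12.2 FPKM and 4.57 FPKM, and with unannotated transcripts of its strand added its log2 ratio was 0.42 and it was not called. Rac1, a GTPase of cell movement, was lower at 12.8 FPKM, against 67.8 FPKM.

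Genes that act on chemokine transcription were read next. Of 17 genes of transcription factors and NF-κB regulators, 0 were higher and 1 was lower. The lower one was Cebpb, which was listed at 0 in the miR-7KD-titled library and at 13.2 FPKM in the WT-titled library. Nfkbia, the NF-κB inhibitor that NF-κB itself induces, measured 55.7 FPKM and 47.4 FPKM, and 94.4 FPKM and 48.1 FPKM with an unannotated transcript of its strand added, which was not past 2-fold. Of 16 inducer genes 10 were listed. Tnf measured 0.509 FPKM in the miR-7KD-titled library and 0.235 FPKM in the WT-titled library. Il1a (0.674 and 0.226) and Ly96 (0.704 and 0.324) were also under the minimum of 1 FPKM, so these genes could not be called. Il1b, Il6, Ifng, Ifnb1, Il17a and Tlr4 are not in the table used here. The 7 that reached 1 FPKM all encode receptors or receptor subunits. Of these 7, 0 were higher and 2 were lower, both cytokine receptor subunits. Osmr measured 1.22 FPKM and 3.34 FPKM, and Il6ra measured 0.548 FPKM and 1.78 FPKM. Of 8 genes listed for acting on chemokine mRNA or its induction, 1 was higher and 1 was lower. Zfp36l1, which promotes mRNA decay, was higher at 9.47 FPKM, against 2.00 FPKM in the WT-titled library. Dusp1, which switches off MAP kinases, was lower at 4.01 FPKM, against 10.9 FPKM in the WT-titled library. Of 11 LPS response genes outside the chemokines 0 were higher and 1, Osmr, was lower, and their median log2 ratio was -0.23. Lcn2 measured 86.5 FPKM and 89.1 FPKM, Serpina3n 64.7 FPKM and 105 FPKM, and Ptgs2 8.89 FPKM and 8.40 FPKM. Over all 9 lists, of 134 genes, 91 were listed, 73 reached 1 FPKM, 3 were higher and 6 were lower. These 9 called genes are 12.3% of the 73, a share near the 11.6% of all genes tested.

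**Figure D4:**
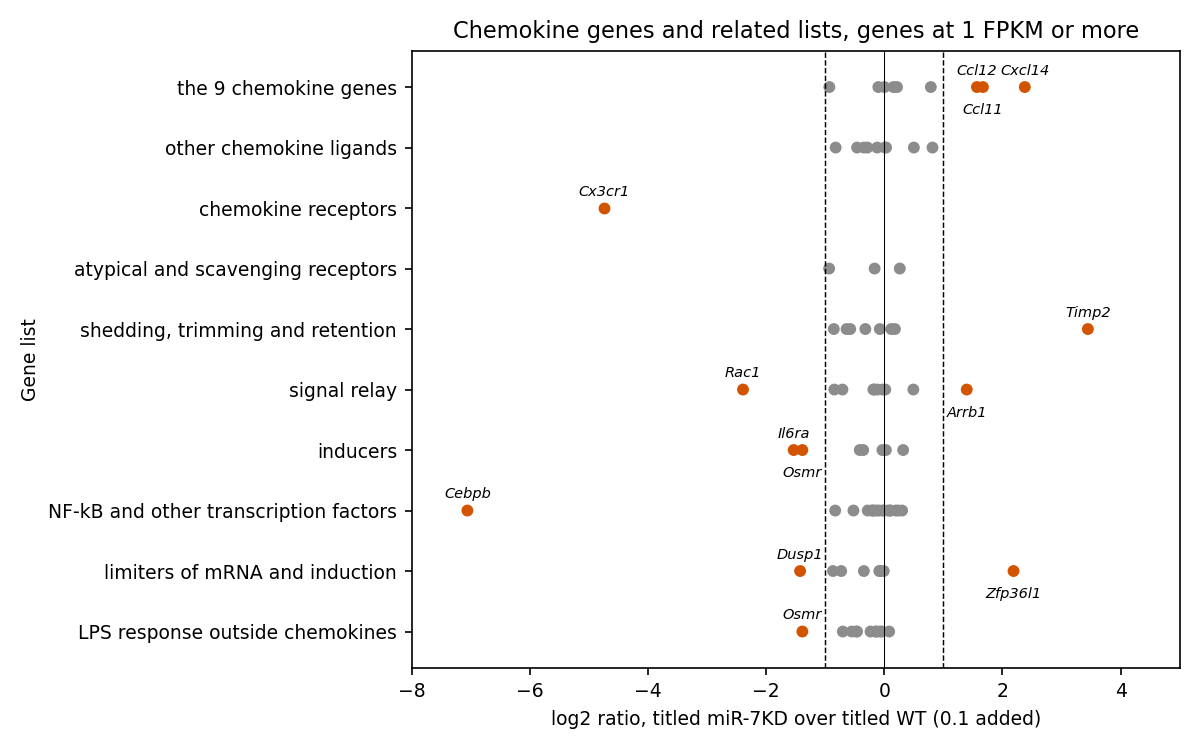
Log2 ratios, titled miR-7KD over titled WT with 0.1 added (x axis), of the 9 chemokine genes and of the genes at 1 FPKM or more in 9 related lists (y axis), with called genes in orange and dashed lines at 2-fold. Orange points number 3 in the top row, all to the right, and the position of Cebpb depends on the 0.1 added because it is listed at 0 in the miR-7KD-titled library.

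Markers of the cells that make or answer chemokines were read beside these values, and in bulk tissue fewer cells of a type and less RNA per cell cannot be told apart. The 10 microglial markers summed to 122 FPKM in the miR-7KD-titled library and 128 FPKM in the WT-titled library, with 0 higher and 1 lower, Cx3cr1. The 8 neuron markers summed to 636 FPKM and 641 FPKM with none called, although single markers differed in both directions. Slc17a7 measured 63.6 FPKM and 118 FPKM in the same order, a log2 ratio of -0.89. Tubb3 measured 178 FPKM and 145 FPKM, and Gad1 measured 42.2 FPKM and 34.0 FPKM. Astrocyte markers summed to 434 FPKM and 621 FPKM, with Slc1a2 and Gja1 lower and 6 of 8 not called. Endothelial markers summed to 76.4 FPKM and 52.9 FPKM, a difference held by Cldn5, which measured 24.7 FPKM in the miR-7KD-titled library and was listed at 0 in the WT-titled library. Mural cell markers summed to 13.8 FPKM and 31.3 FPKM, with Rgs5 lower.

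Of the leukocytes that these chemokines draw, neutrophil markers summed to 15.2 FPKM in the miR-7KD-titled library and 10.9 FPKM in the WT-titled library, with 3 of 8 listed and none called. S100a8 measured 6.99 FPKM and 6.38 FPKM in the same order, S100a9 7.18 FPKM and 3.80 FPKM, and Ngp 1.07 FPKM and 0.671 FPKM. The defining markers Ly6g, Mpo and Elane are not in the table used here. Monocyte and macrophage markers summed to 8.50 FPKM and 6.31 FPKM, with 4 of 7 listed, 2 of them at 1 FPKM or more and none called. Of 8 T and B cell markers only 1 was listed, Cd4, at 2.57 FPKM and 2.69 FPKM. The part of these marker values in the chemokine ratios was not tested.

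**Figure D5:**
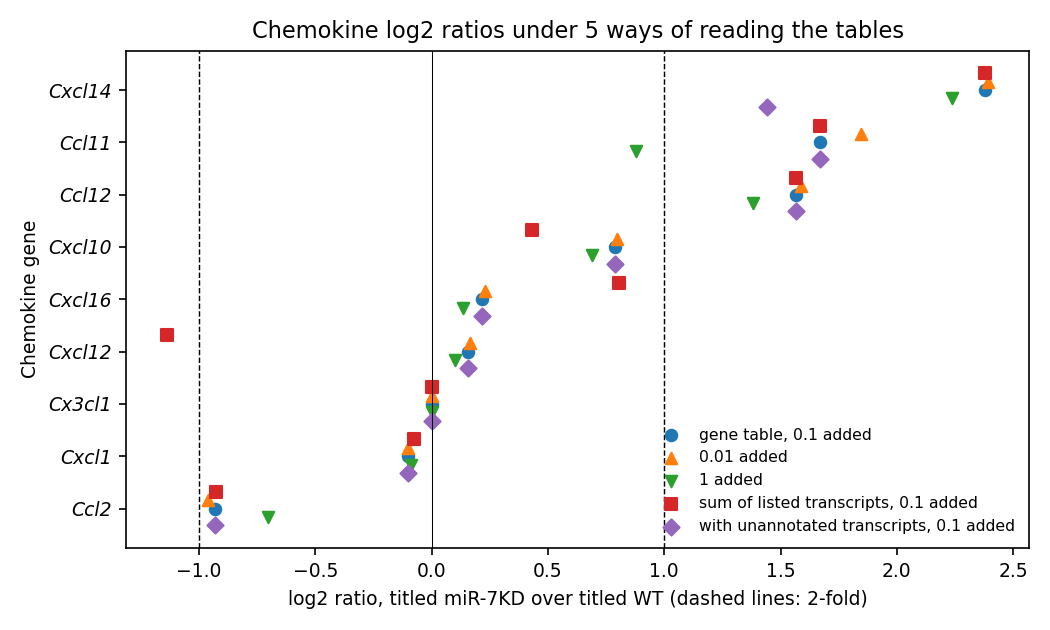
Log2 ratios of the 9 chemokine genes, titled miR-7KD over titled WT (x axis), read 5 ways, from the gene table with 0.1, 0.01 or 1 added, from summed listed transcripts, and with unannotated transcripts of the same strand added. The markers of Cx3cl1 overlie each other at 0.00, while Cxcl12 moves to -1.14 with summed transcripts and Ccl11 to 0.88 with 1 added.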

How the data were processed

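RNA of brain tissue was measured in 2 libraries, 1 per title. The authors deposited 4 tables of FPKM, of which 3 were used, those of protein-coding genes, protein-coding transcripts (23374) and unannotated transcripts (10238). The table of unannotated genes was not used. Bowtie 0.12.2 and mm8 are named in the submitters' processing notes, whereas the positions match GRCm38, where 13362 of 13381 genes overlapped the GENCODE M21 gene of the same identifier. A program for FPKM was not given in the sources used here. The study's methods speak of an expression array. Read numbers are unknown, so counting error could not be given. Entries whose higher value was under 0.5 FPKM are not in the gene table.

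Columns were matched to samples through the number in each title. Log2 ratios used a pseudocount of 0.1, which understates the change of low genes, and a gene was called at 2-fold if either library reached 1 FPKM. No test was made. As alternatives, 0.01 or 1 was added, the median log2 ratio was set to 0, and use was made of summed listed transcripts, unannotated transcripts added, no minimum or one of 5 FPKM, and 1.5-fold or 3-fold thresholds. The unannotated transcripts added were those overlapping a gene's span on its strand, and their FPKM were added without weighting by length. The 9 members, the lists and the markers were chosen with earlier results of these data known. Named genes were all members and, from each related list, every called gene and up to 4 others with the highest mean FPKM, of which not all are printed. One listed gene and one sequence window are not reported here. Cxcl2, Ccl7 and Art3 were named as neighbours of members. The calling step was tested on simulated data. Exons, 3′-UTRs and coding ends came from GENCODE M21, miRNAs and promoters from RefSeq. Python 3.11.15, numpy 2.4.6, pandas 2.3.3 and matplotlib 3.10.9 were used.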

Additional observations from a re-analysis of the deposited data

How the results depend on the processing

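Over 5 alternatives that changed the values, 45 log2 ratios of the 9 chemokine genes were recomputed, of which 41 stayed on their side of 2-fold and within 1.5-fold of the main value and 4 moved. No called gene changed sign, and Cxcl12, not called in the gene table (0.16), did. Those that moved were Ccl11 (0.88 with 1 added), Cxcl12 (-1.14) and Cxcl16 (0.81) with summed transcripts, and Cxcl14 (1.44 with the unannotated transcript added). Of the 9 genes 3 were called in the gene table. With a 1.5-fold threshold 5 were called, 1 of them lower (Ccl2), and with summed transcripts 1 was lower (Cxcl12). With a minimum of 5 FPKM, a 3-fold threshold or 1 added, 2 were called. Ccl11 was lost with the minimum of 5 FPKM and with 1 added, and Ccl12 with the 3-fold threshold, since its log2 ratio with 0.1 added (1.57) lies just under 3-fold. Of the related genes 9 were called, 5 with a 3-fold threshold and 8 with unannotated transcripts added, a setting chosen after seeing the data, where Cx3cr1 and Arrb1 were no longer called and Elavl1 was. No paired analysis was possible because each title has 1 library. Depth is unknown, so values near 1 FPKM, such as those of Ccl11, Cxcl12 and Cxcl16, have no error here.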
